A study of Caenorhabditis elegans with 2 samples.

Results

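The mitochondrial ribosomal protein genes of the nematode *Caenorhabditis elegans* were taken as the protein-coding genes named mrpl or mrps followed by a number in the Ensembl annotation of WBcel235. There were 70 of them among 19973 protein-coding genes on the nuclear chromosomes, 41 for the large subunit (mrpl) and 29 for the small subunit (mrps). For each gene the strongest peak with a summit within 1000 bp of the gene start was read from 4 deposited peak lists. The rule uses gene names and no peak value.

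The peaks come from chromatin immunoprecipitation and sequencing of CEH-8, a paired-like homeodomain protein whose gene marks the RIA interneurons. Strain OP760 carries unc-119(tm4063) and the transgene wgIs760, in which ceh-8 is fused to TY1, EGFP and 3xFLAG and travels with unc-119(+) as the rescue marker. Mixed-sex L1 larvae of 6 hours, synchronized by starvation after bleaching, were used whole, and the tagged protein was precipitated with an antibody against GFP. The 1 group has 2 biological replicates and nothing to be compared with, and in whole larvae a peak cannot be assigned to a cell type. Both replicates are of this 1 transgenic line, and peaks from larvae without it were not analysed here.

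The ribosome inside mitochondria makes the few membrane proteins of the respiratory chain that the organelle's own genome encodes. Nearly all of its proteins are encoded in the nucleus, made in the cytoplasm and imported, and they assemble on mitochondrial ribosomal RNA into a large subunit, which forms peptide bonds, and a small subunit, which reads the messenger RNA. Genes of this machinery are active in most cells rather than in neurons alone. Many *C. elegans* genes stand close behind one another on the same strand in operons, where one upstream promoter serves several genes.

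The lists of replicate 1, of replicate 2 and of both together (pooled) had 30000 peaks apiece. The optimal list by irreproducible discovery rate (IDR), which scores how alike peaks rank in replicates, had 1891. The IDR list was identical to the 1891 strongest pooled peaks, so a peak in it need not be strong, or present, in each replicate. Rank 1 is the strongest peak of a list by the authors' signal value, which has no stated scale and is used here within a list only. A strong peak of a replicate means one of its 1891 strongest. Read depth is unknown from these files.

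An IDR peak lay near 10 of the 70 genes, or 14.3%, against 6.53% of all protein-coding genes (1305 of 19973). Of the large subunit they were mrpl-12, mrpl-15, mrpl-28, mrpl-45, mrpl-49 and mrpl-55 (6 of 41), and of the small subunit mrps-7, mrps-16, mrps-17 and mrps-35 (4 of 29). All 10 summits were upstream of the gene start, 114 to 607 bp away with a median of 173 bp. Over the 1305 genes with an IDR peak, 84.4% of the strongest summits were upstream and the median distance was 277 bp. The 10 peaks ranked 157 to 1774, with a median of 780 against 835 for all genes with an IDR peak. These shares and medians are descriptions, and no test of the gene list was made.

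The bases around the summits of 6 of these peaks are given to show the strongest peak of each subunit (mrpl-28 and mrps-7), the peak shared with a cytoplasmic ribosomal protein gene (mrpl-49), the one of the 10 summits with TAATTG nearby (mrps-17) and the letter strings that recur among them. Each is the RefSeq sequence of WBcel235 within 50 bp of the summit, written 5′ to 3′ on the strand of the gene. They are chrII:156073-156173 (minus strand) for mrpl-28, chrIV:14767844-14767944 (minus strand) for mrps-7, chrIII:6431906-6432006 (minus strand) for mrps-17, chrV:12728399-12728499 (plus strand) for mrpl-49, chrIII:1202307-1202407 (minus strand) for mrpl-45 and chrII:5474113-5474213 (plus strand) for mrps-16. Capitals mark the strings GCAAACA and GCTCCA and, in mrps-17 alone, TAATTG read on the opposite strand.
mrpl-28: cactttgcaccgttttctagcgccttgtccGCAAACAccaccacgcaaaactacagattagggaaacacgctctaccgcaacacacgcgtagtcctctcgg
mrps-7: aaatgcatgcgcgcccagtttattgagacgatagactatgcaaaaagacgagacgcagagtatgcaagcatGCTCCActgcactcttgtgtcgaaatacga
mrps-17: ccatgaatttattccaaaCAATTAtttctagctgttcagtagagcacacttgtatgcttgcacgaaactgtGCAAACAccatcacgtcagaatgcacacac
mrpl-49: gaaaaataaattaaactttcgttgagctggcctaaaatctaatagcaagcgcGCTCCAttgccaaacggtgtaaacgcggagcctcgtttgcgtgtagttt
mrpl-45: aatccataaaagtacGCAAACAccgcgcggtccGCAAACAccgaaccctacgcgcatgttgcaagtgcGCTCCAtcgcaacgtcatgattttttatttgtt
mrps-16: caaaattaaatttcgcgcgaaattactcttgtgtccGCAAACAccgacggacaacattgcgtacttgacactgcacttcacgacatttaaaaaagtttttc

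Among large subunit genes, mrpl-28 (WBGene00020796, II, 154881 to 156009, minus strand) had the strongest peak. Its IDR signal was 275 at rank 157, 114 bp upstream of the start (II, 155948 to 156297). Replicate 1 placed it at rank 176 (signal 153) and replicate 2 at rank 215 (signal 119), and the 2 summits lay 118 and 111 bp upstream. The peak stood alone: no other protein-coding start was within 1000 bp of the summit, and the nearest gene upstream, etr-1, was 6364 bp away.

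The peak of mrpl-55 (WBGene00022045, IV, 443985 to 444786, plus strand) likewise had no other protein-coding start within 1000 bp. Its IDR signal was 160 at rank 583, 153 bp upstream (IV, 443657 to 444006), and the replicates placed it at 953 and 561. At mrpl-15 (WBGene00022373, I, 1436279 to 1441334, plus strand) the summit was the farthest of the 10, at 607 bp upstream, with IDR signal 127 at rank 963. The replicates gave ranks 865 and 1441 there, both strong. These 3 large subunit genes thus had a strong peak of their own in each replicate.

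The gene mrpl-12 (WBGene00012361, III, 10707761 to 10708521, plus strand) encodes the counterpart of a bacterial stalk protein that recruits translation factors. Its peak lay 543 bp upstream (III, 10707043 to 10707392, IDR signal 143, rank 752) and ranked 821 and 996 in replicates 1 and 2. The summit was nearer to the starts of Y39A1A.22 and Y39A1A.21 on the other strand, at 190 and 196 bp. At mrpl-45 (WBGene00022493, III, 1196389 to 1202008, minus strand) the summit was 349 bp upstream with IDR signal 118 at rank 1115. It ranked 1484 and 901 in the replicates and was nearer to the start of Y119D3B.12 on the other strand, at 189 bp. Both peaks were strong in each replicate, and both lie between a pair of genes that point away from each other, so the gene a peak belongs to cannot be told from its position.

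The replicates differed at mrpl-49 (WBGene00011247, V, 12728631 to 12729417, plus strand). Replicate 2 had a peak of rank 514 and signal 83.1, 182 bp upstream. Replicate 1 had no peak within 1000 bp of the start among its 30000. The IDR peak (V, 12728274 to 12728623, signal 136, rank 842) is shared with rpl-28, a gene for a protein of the cytoplasmic large subunit, whose start on the other strand is 337 bp away. It was the only one of the 10 without a peak in 1 replicate list.

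In the small subunit, mrps-7 (WBGene00013324, IV, 14766773 to 14767730, minus strand) had the strongest peak. The protein is the counterpart of a bacterial protein that starts the assembly of the head of the small subunit. The IDR signal was 234 at rank 242, 164 bp upstream (IV, 14767719 to 14768068). Replicate 2 placed it at rank 130 with signal 146, the highest rank of any of the 70 genes in either replicate, and replicate 1 at rank 617 with signal 88.3. The start of Y57G11C.3 on the other strand was 307 bp from the summit.

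At mrps-35 (WBGene00012697, V, 18981306 to 18985865, plus strand) the peak ranked 459 with IDR signal 177, 135 bp upstream, at rank 496 in replicate 1 and 589 in replicate 2. Its summit was the only one of the 10 inside an annotated gene, an untranslated exon of sws-1 on the other strand, 308 bp inside that gene. The other 9 were in no annotated gene. When each summit was given only to the nearest protein-coding start, 8 of the 70 genes kept an IDR peak (11.4%, against 4.82% of all genes), and mrpl-12 and mrpl-45 lost theirs to the neighbour.

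The last 2 small subunit genes had weaker peaks in replicate 1. The peak of mrps-17 (WBGene00015487, III, 6431042 to 6431798, minus strand) ranked 2232 in replicate 1 and 393 in replicate 2, with summits 163 and 158 bp upstream (IDR signal 138, rank 807). The summit was 222 bp from the start of txdc-9 on the other strand. That of mrps-16 (WBGene00018961, II, 5474373 to 5475420, plus strand) had the lowest IDR rank of the 10, 1774 with signal 91.2. Its replicate ranks were 2633 and 1977, so it was strong in neither, although both summits were upstream, at 178 and 209 bp.

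**Figure D1:**
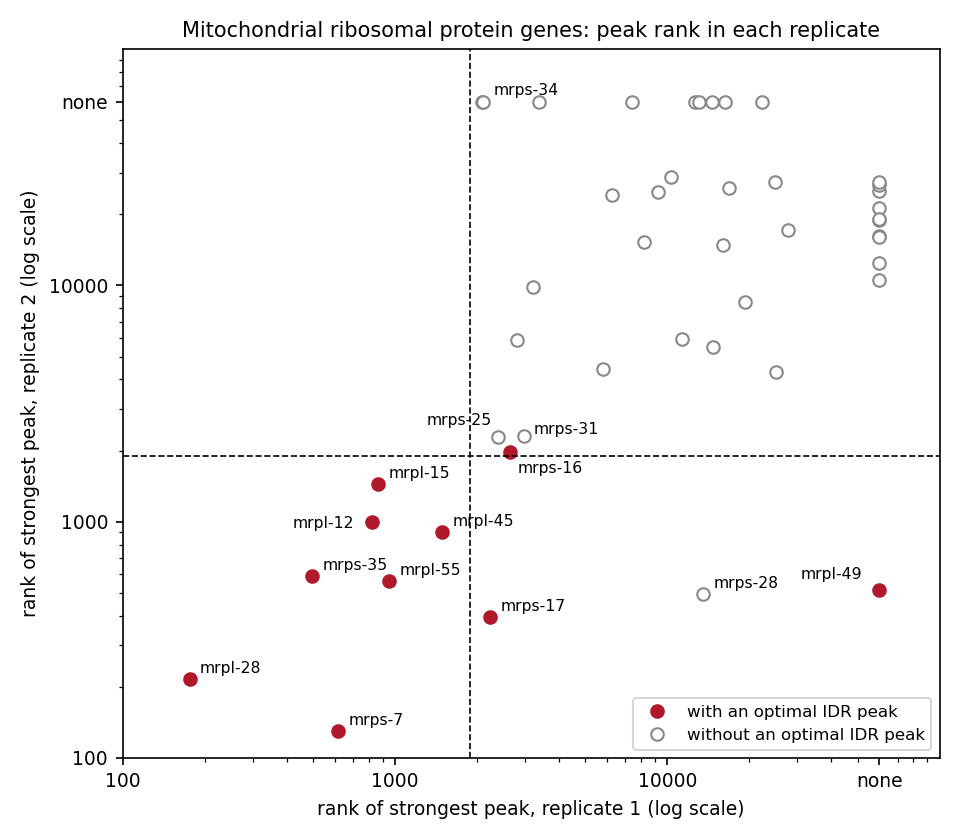
Each point is 1 mitochondrial ribosomal protein gene, placed by the rank of its strongest peak within 1000 bp of the start in replicate 1 (horizontal) and replicate 2 (vertical), both on log scales, with "none" where a list has no such peak. The 7 filled red points left of and below the dashed lines at rank 1891 are the genes with a strong peak in both replicates. The 23 genes with no peak in either replicate list are not drawn.

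A strong peak in each replicate was the narrower call. Replicate 1 had one at 7 of the 70 genes (6.33% of all genes had one) and replicate 2 at 10 (6.21% of all genes). The 7 were strong in both, or 10% of the genes against 4.22% of all genes, and were mrpl-12, mrpl-15, mrpl-28, mrpl-45, mrpl-55, mrps-7 and mrps-35. The other 3 of replicate 2 were mrpl-49, mrps-17 and mrps-28. At the 9 genes with an IDR peak and a peak in both replicate lists, the replicates' summits lay 5 to 85 bp apart with a median of 11 bp.

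With weaker peaks included the shares lay near those of all genes. In the pooled list 37 of 70 genes had a peak, 52.9% against 50.2% of all genes. Replicate 1 had one at 36 (all genes, 49.8%) and replicate 2 at 38 (all genes, 50.1%). In all, 21 of the 70 had no peak in any list, or 30%, against 30.2% of all genes. Over the 27 genes with a peak in both replicates Spearman's rho of the ranks was 0.726. This is across genes measured in the same 2 samples, given as a description. The 2 summits were within 200 bp of each other at 14 of the 27 genes, so elsewhere the ranks may be of different peaks. The 27 also include 9 genes with an IDR peak, and those peaks were among the strongest of the same replicates pooled. Among the 18 of the 27 genes without an IDR peak, the replicates' summits were 6 to 1348 bp apart with a median of 424 bp, and 5 pairs were within 200 bp of each other.

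The strongest peak below the IDR list was at mrps-31, rank 2160 in the pooled list, 197 bp upstream, and 2964 and 2313 in the replicates. Next came mrps-34 (pooled rank 3572), which ranked 2104 in replicate 1 and had no peak in replicate 2, and mrps-25 (4395), which ranked 2379 and 2280. The others of the 10 leading genes below the list were mrpl-17, mrpl-47, mrps-23, mrpl-40, mrps-9, mrpl-19 and mrpl-37, with pooled ranks from 5059 to 10833. Of these mrpl-40 and mrpl-37 also had no replicate 2 peak.

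Among the 27 genes with a peak in both replicates, the widest gap in rank was at mrps-28, with rank 13503 in replicate 1 and 493 in replicate 2, a ratio of 27.4. The peaks were not in the same place, at 113 and 991 bp upstream. An IDR summit lay 1016 bp upstream of mrps-28, just outside the window, and those nearest to mrpl-23 and mrps-21 were at 1021 and 1027 bp. Just inside, the farthest was that of mrpl-15 at 607 bp. Rank ratios of 5.82 at mrps-6, 5.68 at mrps-17, 4.75 at mrps-7 and 3.87 at mrpl-16 followed.

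A pooled peak was lacking at 33 genes. The 21 with no peak in any list were mrpl-1, mrpl-10, mrpl-11, mrpl-21, mrpl-22, mrpl-24, mrpl-30, mrpl-32, mrpl-34, mrpl-38, mrpl-39, mrpl-41, mrpl-51, mrpl-54, mrps-11, mrps-14, mrps-18.C, mrps-18B, mrps-24, mrps-27 and mrps-33. The other 12 had a peak in 1 or both replicates only: mrpl-4, mrpl-9, mrpl-42, mrpl-44, mrpl-46, mrpl-50, mrpl-53, mrps-2, mrps-12, mrps-15, mrps-18A and mrps-22. The gene mrps-5, known from worm studies in which its knockdown lengthened life, had 1 weak pooled peak (rank 14218) 966 bp inside the start and none in either replicate. It is singled out here after its values were seen.

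**Figure D2:**
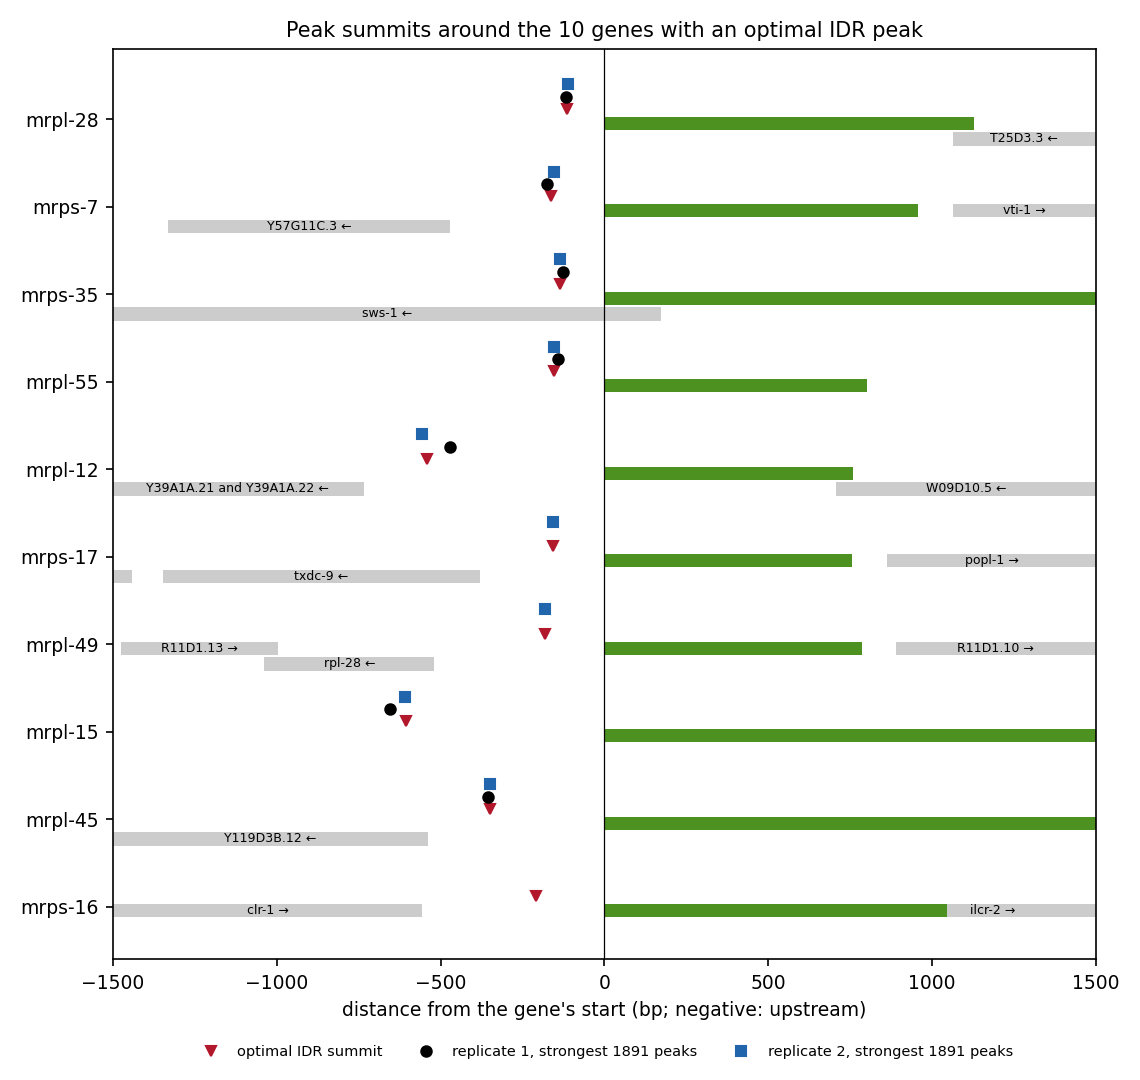
Each row is 1 of the 10 genes with an optimal IDR peak, in order of IDR rank, drawn in its own direction with its start at 0 bp; green bars are the gene itself, grey bars its protein-coding neighbours with arrows for their direction, and symbols the summits. All IDR summits (triangles) lie between 607 and 114 bp upstream, with replicate summits (circles and squares) shown where they are strong.

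Where the peaks lay was looked at next. Over the 37 genes with a pooled peak the median distance of the strongest summit was 199 bp, against 424 bp over the 10027 genes of the genome with one. In the 200 bp just upstream of the start lay 15 of the 37 pooled summits, or 40.5%, against 15.4% for all genes. Of these 15 summits, 6 were of IDR peaks. Over all 1305 genes with an IDR peak, 33% of the strongest IDR summits lay in this bin. Genes with an IDR peak were 10 of the 37 but 1305 of the 10027, so 40.5% and 15.4% are of unlike mixes of peaks. The share in this bin was not taken for each replicate alone. Upstream of the start in all were 25 of 37 (67.6%, against 54.4% of all genes). The upstream share was 69.4% in replicate 1 (all genes, 53.9%) and 57.9% in replicate 2 (all genes, 55.3%), so in replicate 2 it lay near that of all genes. With the replicates alone the median distance was longer, 315 bp in replicate 1 and 283 bp in replicate 2, against 430 and 435 bp for all genes. The nearness also depended on the window: within 2000 bp the median was 1025 bp over 54 genes of the 70, against 920 bp over all genes with a peak, and only 24 of the 54 strongest summits were within 1000 bp.

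**Figure D3:**
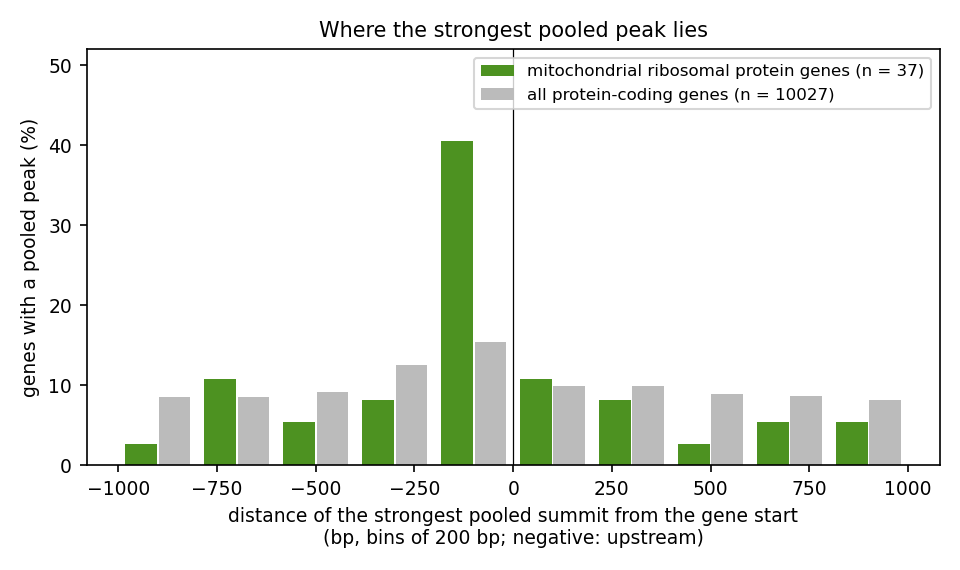
Bars give the percentage of genes whose strongest pooled summit falls in each 200 bp bin of distance from the gene start, for the 37 mitochondrial ribosomal protein genes with a pooled peak (green) and the 10027 protein-coding genes with one (grey). The bin from 200 bp upstream to the start holds 40.5% of the former and 15.4% of the latter.

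The genes were then divided by what stands upstream of them. Of the 70, 27 stood behind another gene on the same strand with a gap of 0 to 500 bp, an arrangement found in 38.6% of them and 17.7% of all genes. None of these 27 had an IDR peak within 1000 bp of its own start, while 10 of the other 43 did (23.3%). Over all genes the shares were 4.41% and 6.99%. The count of 0 depended on the gap allowed. With gaps up to 1000 bp, 1 of 32 such genes had an IDR peak at its own start. It was mrps-16, 556 bp behind clr-1. Of the 10 genes with an IDR peak, 8 had an upstream neighbour on the opposite strand (80%, against 66.4% of all genes with an IDR peak and 50% of the 70). The annotation used does not mark operons, so close spacing is the only evidence here that genes may share a promoter. This grouping was chosen after the peaks were seen.

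The runs of closely spaced genes were followed upstream to their first gene. Of the 27 genes, 10 had an IDR peak at the first gene of their run, or 37%, against 12.5% of all 3538 genes in that arrangement (444). They were mrpl-30, mrpl-32, mrpl-41, mrpl-48, mrpl-53 and mrpl-54 of the large subunit and mrps-11, mrps-14, mrps-21 and mrps-26 of the small subunit. Whether the start of another gene lay nearer to these summits is not given here. Counting a peak at the own start or at the first gene of the run, 20 of 70 genes had one, or 28.6%, against 8.5% of all genes.

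The strongest of these was at rpn-3, a gene for a proteasome subunit that stands before mrpl-32, with rank 284 and 167 bp upstream. Before mrpl-54 stands clsp-1 (rank 390, 240 bp upstream) and before mrps-14 nrde-2, a gene of nuclear RNA interference (rank 679, 936 bp upstream). The run of mrps-26 begins 2 genes upstream with atp-2, which encodes the beta subunit of the mitochondrial ATP synthase (rank 778, 243 bp upstream). That of mrpl-41 begins with misc-1, which encodes a mitochondrial carrier protein (rank 735, 828 bp upstream). The first genes of the other 5 runs were tag-124 (mrpl-53), F29B9.11 (mrps-21), W04B5.5 (mrpl-30), W04D2.4 (mrps-11) and vps-37 (mrpl-48), with ranks from 1017 to 1512. The genes mrps-2 and mrpl-4 stand in 1 run behind natc-1, which had no IDR peak, and neither did sel-1, before mrps-5.

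Other genes of mitochondrial function, and the proteins of the cytoplasmic ribosome, were set beside these. Of 18 genes for mitochondrial tRNA synthetases, translation factors and dap-3, 3 had an IDR peak (16.7%): ears-2, a glutamyl-tRNA synthetase gene (rank 432), gfm-1, an elongation factor gene (rank 978), and tufm-2, another elongation factor gene (rank 1193). All 3 were strong in both replicates. Mitochondrial import and chaperone genes had 5 of 15 (33.3%), led by hsp-60, a chaperonin gene (rank 15), ddp-1 (rank 55) and tomm-20, an import receptor gene (rank 330). The oxidative phosphorylation genes had 20 of 68 (29.4%), 12 of them strong in both replicates (17.6%), led by the cytochrome c oxidase genes cox-5A (rank 20) and cox-5B (rank 232) and by nduc-2 (rank 269). Cytoplasmic ribosomal protein genes had 39 of 81 (48.1%), 30 strong in both replicates (37%), or 21 (25.9%) when a summit went only to the nearest start, and were led by rpl-3 (rank 1), rpl-20 (rank 6) and rpl-35 (rank 7). The 14.3% of the mitochondrial ribosomal protein genes was the lowest share of these 5 lists by this call, and above the 6.53% of all genes. With the nearest start only, the mitochondrial translation list had 2 of 18 (11.1%), beside 11.4% of the mitochondrial ribosomal protein genes. The import and chaperone genes then had 4 of 15 (26.7%), beside the 25.9% of the cytoplasmic list, and the oxidative phosphorylation genes 14 of 68 (20.6%). The order of the lists thus depended on the call. All 5 lists were read from the same 2 samples and were not tested against each other.

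**Figure D4:**
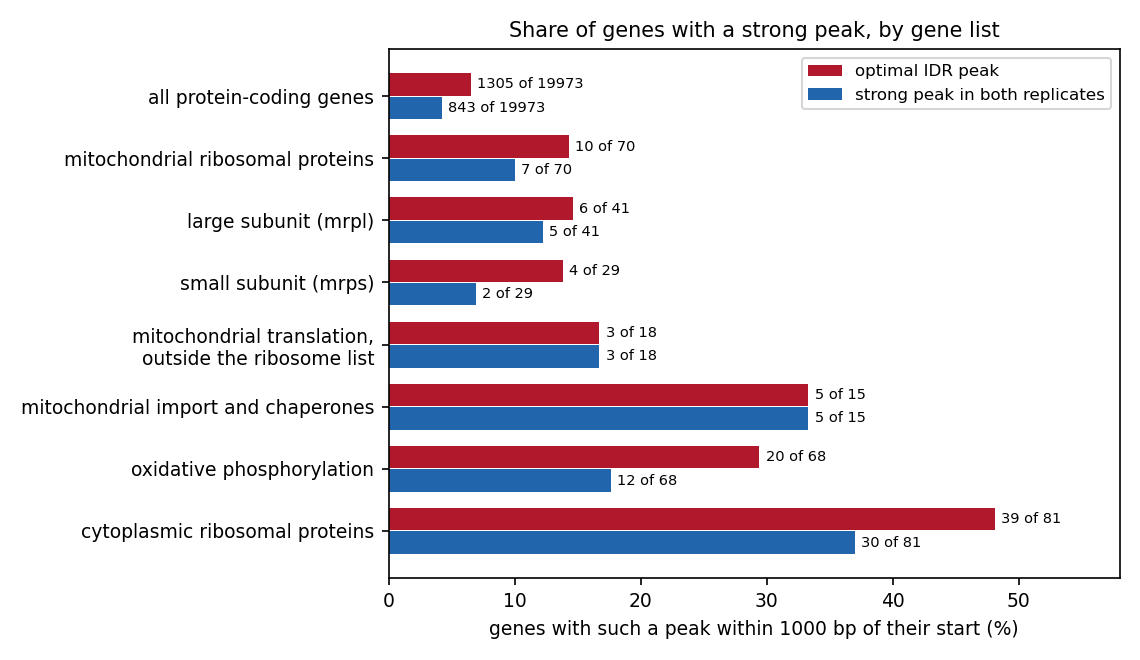
Bars give the percentage of each list's genes with an optimal IDR peak (red) or a strong peak in both replicates (blue) within 1000 bp of their start, with the counts beside them. The 70 mitochondrial ribosomal protein genes (10 and 7) lie between all protein-coding genes and the 81 cytoplasmic ribosomal protein genes (39 and 30).

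By chromosome, III held 22 of the 70 genes and 3 of the 10 with an IDR peak, I held 15 and 1, II 12 and 2, IV 11 and 2, and V 10 and 2. None of the 70 is on X. The share of all genes with an IDR peak ran from 5.13% on V to 9.39% on III.

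The sequence at the 10 summits was compared with that of other IDR peaks near gene starts, in windows of 101 bp and on both strands. TAATTA, the core that paired-like homeodomains bind, was at 0 of the 10 summits, against 4.91% of the 977 other IDR peaks within 1000 bp of a gene start. TAATTG was at 1, that of mrps-17, against 9.52%. GAGAGA was at 1, that of mrpl-15, against 18.9%. With 10 windows, 0 and 1 are too few to tell from these shares. In promoters, taken as 250 bp upstream to 50 bp downstream of the start, TAATTA lay in 15 of the 70 (21.4%, against 15.5% of all 19973) and in 2 of the 10 with a peak. The median GC content of the 10 windows was 47.5%, the same as the 47.5% of the 987 IDR peaks near gene starts, with a range of 39.6% to 53.5%.

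On reading windows at the summits, 2 further letter strings were seen in more than 1 of them. Their shares are given with no test because they were picked from these sequences. Every window printed above holds at least 1 of the strings, since the windows were chosen partly to show them. Those of mrpl-12, mrpl-15, mrpl-55 and mrps-35 hold neither. GCAAACA was at 4 of the 10 summits, those of mrpl-28, mrpl-45, mrps-16 and mrps-17, and in mrpl-45 it occurs more than once. It was at 6.55% of the 977 other IDR peaks near gene starts and at 1.11% of the 904 IDR peaks away from them. GCTCCA was at 3, those of mrpl-45, mrpl-49 and mrps-7, against 8.09% of the 977. The 10 IDR peaks at the first genes of the runs were not among the sequences read, and held GCAAACA once and GCTCCA once. In promoters of the 60 genes without an IDR peak GCAAACA was found in 6 (10%), against 7.42% of all promoters. A match says only that these letters are there.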

How the data were processed

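CEH-8 binding was measured in 2 biological replicates of 1 group, numbered as in the labels. The description files deposited with the samples say that peaks came from the alignments of 1 or both replicates with a control alignment, and the IDR list from those 3 lists, all on ce11. The authors' deposited signal value of each peak (unit signal) was used unchanged to rank peaks within a list. Not given in the sources used here are the signal's scale, aligner, peak caller and IDR threshold. Per the labels, fragments were 200 to 800 bp. Depth is unknown, so no interval is given.

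Python 3.11.15 with numpy 2.4.6, pandas 2.3.3 and matplotlib 3.10.9 was used. A summit was given to every protein-coding gene of Ensembl release 115 (WBcel235, the assembly of ce11) whose outermost start was within 1000 bp, so that genes may share a peak. The assignment was tested on simulated data. Genes named are those with an IDR peak, the 10 strongest below it, those without a pooled peak, the 5 largest rank ratios, and 3 from each list. Outside this rule, mrps-5, genes just outside the window and genes in runs were named after their values were seen. The members and lists were chosen with earlier results of these data known. The names cars-2, mars-2 and wars-2 matched no gene. The runs of genes and the strings GCAAACA and GCTCCA were chosen after seeing the data. No p-value was computed. Alternatives changed the window, the start, the assignment and the peaks kept.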

Additional observations from a re-analysis of the deposited data

How the results depend on the processing

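The number of genes with an IDR peak, 10, was 8 within 500 bp of the start and 15 within 2000 bp, where 4.72% and 9.72% of all genes had one. It was 8 when a summit was given only to the nearest start (4.82% of all genes), the peaks of mrpl-12 and mrpl-45 then going to their neighbours, and 7 in the stronger 50% of IDR peaks (3.68%). For 1 replicate alone, strong peaks were counted in place of IDR peaks. There were 10 genes with one in replicate 2 (6.21% of all genes) and 7 in replicate 1 (6.33%). The 10 of replicate 2 include mrps-28 and lack mrps-16, so they are not the same 10 genes. The 7 genes with a strong peak in both replicates became 11 within 2000 bp (6.24% of all genes), 11 with 3782 strong peaks a replicate (6.11%) and 3 with 945 (2.42%). Of the 37 genes with a pooled peak, 24 had one in the stronger 50% of the list (34.3%, all genes 29.4%). The list of 1 replicate alone gave 36 to 38 such genes in place of the 37. The median distance of 199 bp was 156 bp within 500 bp (all genes, 225 bp), 1025 bp within 2000 bp (all genes, 920 bp), and 283 to 315 bp with 1 replicate; the cause was not tested. The 10 genes behind a first gene with an IDR peak were 8 with gaps up to 250 bp (38.1%, all such genes 16%) and 12 with gaps up to 1000 bp (37.5%, 10.5%). With strong peaks in place of IDR peaks they were 8 in replicate 1 (29.6%, 11.2%), 12 in replicate 2 (44.4%, 12.6%) and 7 in both (25.9%, 8.82%). These settings were all chosen after seeing the data. In total, 30 of 38 alternatives kept their own count or median within 1.5 times or within the spread between replicates. This tally does not score the contrast with all genes, and it includes the run settings chosen after seeing the data. No paired analysis was possible because there is 1 group.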
